A study of Homo sapiens with 29 samples.

Results

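Differentiation media were compared with growth media in human myoblasts that had been transfected with ZNF148 siRNA and harvested at 96 h. The comparison was chosen by the sample labels and held 6 of the 29 arrays of the series, 3 labelled 96hr siZNF148 DIFF media and 3 labelled 96hr siZNF148 Growth media, and it was made across all genes. The cells were LHCN-M2, a human skeletal myoblast line immortalized with telomerase and CDK4 and grown as a selected clone, so all arrays carry the same genetic background. Both groups received 20 nM ZNF148 siRNA, a pool against the zinc-finger transcription factor ZNF148, in 6-well plates, and both were labelled as confluent. The labels call the 3 arrays of each group biological replicates, and 1 single-colour Agilent array was used per culture. Arrays of the same line with nontargeting siRNA at 96 h (2 in growth media, 3 in DIFF media) and with ZNF148 siRNA at 48 h (3 in each) served to show where the comparison differed from its nearest neighbours. The labels give the hours as hours of transfection. The study's methods, however, put the change to DIFF media 2 days after transfection and count 48 or 96 h in either medium. The time since transfection of the growth arrays is not given by the latter, so medium and time since transfection may not be separable.

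Myoblasts divide while serum and growth factors are present, and on their withdrawal they leave the cell cycle, switch on myogenin and the contractile genes, and fuse into myotubes. As described for this line, growth media held fetal bovine serum, dexamethasone (a glucocorticoid), HGF and basic FGF, whereas DIFF media replaced these with insulin and apo-transferrin. Several hormones and growth factors therefore changed at once. ZNF148 binds GC-rich promoter sequences and can repress or activate transcription. The comparison addresses what the change of media still does to the transcriptome of cells in which ZNF148 was already reduced. In such bulk cultures, fewer cells of a type and less RNA per cell cannot be told apart.

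Signals are given as quantile-normalized log2 values, differences as DIFF minus growth media on the log2 scale, and each gene by its brightest tested probe. A gene was called higher or lower when limma gave a Benjamini-Hochberg adjusted p under 0.05 and the change was over 2-fold, and all limma tests were two-sided. Between 48.77% and 55.45% of the probes of the growth media arrays and between 45.43% and 49.89% of those of the DIFF media arrays were well above background. The arrays of 1 medium correlated with each other between 0.9876 and 0.9897 across probes in growth media and between 0.9684 and 0.975 in DIFF media. The median SD over genes was 0.09 in growth media and 0.13 in DIFF media. Slides and media were partly mixed, with growth replicates 1 and 3 and DIFF replicate 2 on 1 slide, growth replicate 2 and DIFF replicate 1 on another, and DIFF replicate 3 alone on a further slide. The nontargeting array 48hr siControl Growth media 1 stood apart in its muscle genes, which lay far above those of its own group. Because it would have widened the estimated spread of muscle genes, it was left out of the fit, which used the other 28 arrays. The array entered no comparison, but the choice rested on values of muscle genes, which are tested here.

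ZNF148 itself was examined before other genes. Its log2 signal was 6.76, 6.93 and 6.64 in growth media and 7.05, 6.87 and 7.19 in DIFF media. The groups overlapped, and the difference of 0.26 (SE 0.12) did not pass the test (limma, adjusted p = 0.12). With nontargeting siRNA the signals were 8.98 and 9.18 in growth media and 9.83, 9.79 and 9.70 in DIFF media. ZNF148 siRNA arrays were lower by 2.31 in growth media (limma, adjusted p = 6.9e-12) and by 2.74 in DIFF media (adjusted p = 8.6e-14). The 10 muscle markers used to check the labelled cell type were all well above background in both media.

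DIFF media lowered more genes than they raised. Of the 18398 genes tested, 319 (1.73%) were higher and 930 (5.05%) were lower in DIFF media (limma, adjusted p under 0.05 and over 2-fold). Both directions together made up 6.79% of the genes, and 74.46% of the called genes were lower. With 75th percentile scaling in place of quantile normalization 66.9% of the called genes were lower. The part of the dimmer DIFF arrays in this balance was not tested. Without the fold limit, 2337 genes (12.7%) were higher and 3702 (20.1%) were lower, together 32.8%. The arrays of both media did not overlap for 1206 of the 1249 called genes, against 49.0% of all genes tested. The median difference over all genes was −0.03. Within slides, 1236 of the 1247 called genes that could be compared on both slides had the same sign on both. These genes were called from the same arrays, so the agreement is no independent support for the calls.

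**Figure D1:**
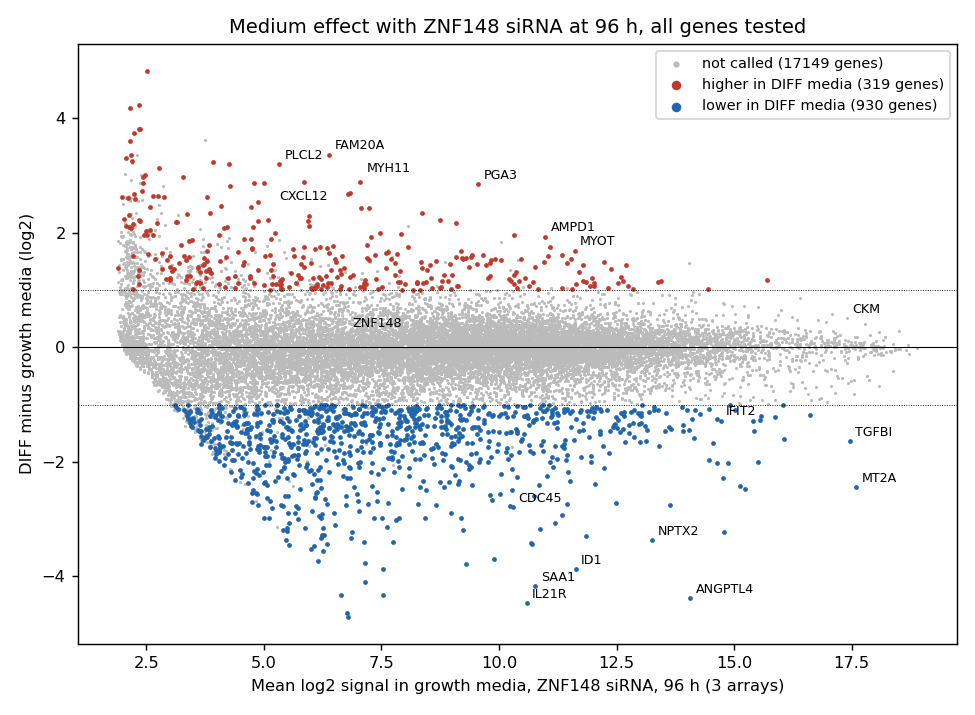
Difference between DIFF and growth media on the log2 scale (vertical axis) against the mean log2 signal in growth media (horizontal axis) for the 18398 genes tested with ZNF148 siRNA at 96 h. Red points are the 319 genes called higher and blue points the 930 called lower, grey points passed no call, and dotted lines mark the 2-fold limit; blue points outnumber red ones, with IL21R and ANGPTL4 lowest among the labelled genes.

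The largest rises are given for genes well above background on all 6 arrays and without overlap. FAM20A, a pseudokinase of the secretory pathway, had signals of 6.31, 6.50 and 6.36 in growth media and 9.72, 9.78 and 9.77 in DIFF media. It rose by 3.37 (SE 0.41, adjusted p = 2.6e-06), and no array of 1 medium reached those of the other. PLCL2, a catalytically inactive phospholipase C-like protein, went from 5.42, 5.43 and 5.11 to 8.66, 8.51 and 8.39, a rise of 3.20 (adjusted p = 4.7e-06). Both of its probes were called. MYH11, the myosin heavy chain of smooth muscle, went from 7.11, 6.97 and 7.03 to 9.80, 9.92 and 10.03, a rise of 2.88 (adjusted p = 3.4e-06). CX3CR1, the receptor of the chemokine fractalkine, went from 4.86, 5.00 and 4.51 to 7.52, 7.56 and 7.91, also a rise of 2.88 (adjusted p = 1.3e-09). In each of these genes the 3 DIFF arrays lay above the 3 growth arrays.

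PGA3, a pepsinogen whose gene has near-identical neighbours so that its probe may read more than 1 gene, had 9.51, 9.51 and 9.66 in growth media and 12.49, 12.41 and 12.34 in DIFF media. It rose by 2.85 (adjusted p = 5.7e-11). CXCL12, the chemokine ligand of CXCR4, went from 6.59, 6.96 and 6.81 to 9.49, 9.42 and 9.46, a rise of 2.67 (adjusted p = 1.7e-12), but only 1 of its 4 probes was called. PI15, a secreted protease inhibitor, rose by 2.90 (adjusted p = 6.2e-04), and the antisense transcript ST3GAL3-AS1 rose by 2.86 (adjusted p = 4.4e-07). KLHL34 was called at 2.54 (adjusted p = 0.049), yet its DIFF signals were 5.51, 11.06 and 5.70 against 4.77, 4.85 and 5.03 in growth media. The call rests on DIFF replicate 2, and the slide without that array gave a difference of 0.66.

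The largest falls are given by the same measure. IL21R, the receptor of interleukin-21, had signals of 10.61, 10.59 and 10.55 in growth media and 6.31, 5.89 and 6.16 in DIFF media. It fell by 4.47 (SE 0.17, adjusted p = 2.5e-13). ANGPTL4, a secreted inhibitor of lipoprotein lipase, had 13.93, 14.18 and 14.10 in growth media and 9.71, 9.51 and 9.85 in DIFF media, and it fell by 4.38 (adjusted p = 2.2e-12). SAA1, serum amyloid A, is an acute-phase protein. Its signals of 10.81, 10.77 and 10.73 in growth media compare with 6.64, 6.54 and 6.61 in DIFF media, and it fell by 4.17 (adjusted p = 1.2e-10). ID1, an inhibitor of the myogenic helix-loop-helix factors, had 11.52, 11.75 and 11.62 in growth media and 7.84, 7.61 and 7.80 in DIFF media, and it fell by 3.88 (adjusted p = 1.3e-16). For all 4 genes every growth array lay above every DIFF array.

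NPTX2, a pentraxin secreted at synapses, had the smallest adjusted p of these genes. Its signals were 13.27, 13.17 and 13.34 in growth media and 9.90, 9.85 and 9.92 in DIFF media, and it fell by 3.37 (SE 0.06, adjusted p = 8.3e-18). CCDC3, a secreted coiled-coil protein, had 11.89, 11.91 and 11.71 against 8.57, 8.43 and 8.61, and it fell by 3.30 (adjusted p = 1.5e-13). Neither gene overlapped between media. BDKRB1, the inducible bradykinin receptor, fell by 3.78 (adjusted p = 1.8e-11), and the keratin-associated gene KRTAP1-5 fell by 3.69 (adjusted p = 4.2e-10).

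**Figure D2:**
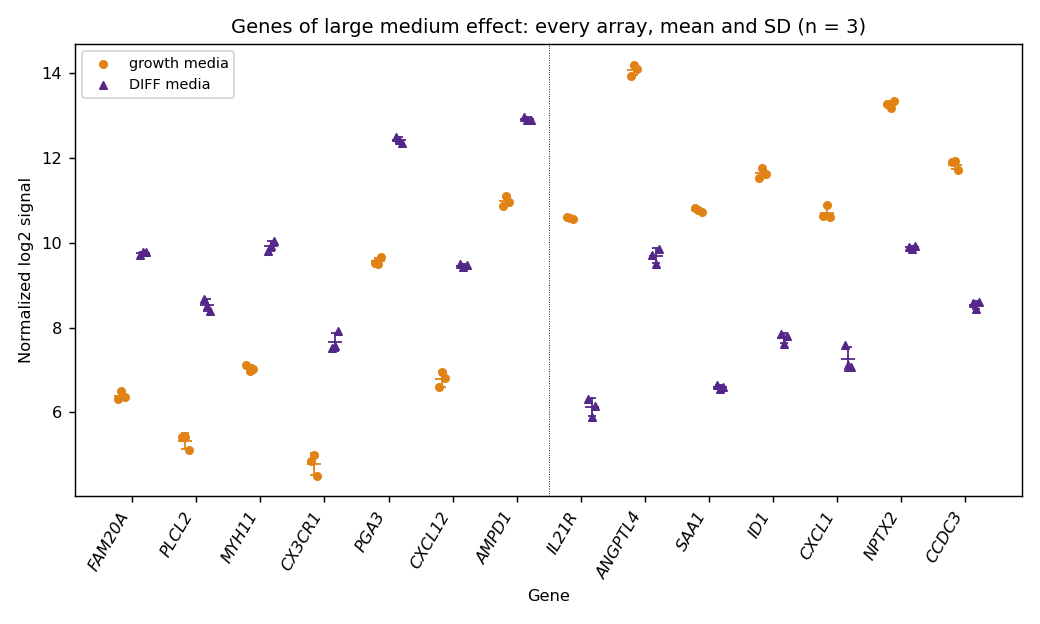
Normalized log2 signal (vertical axis) of 14 genes on every array with ZNF148 siRNA at 96 h, growth media as orange circles and DIFF media as purple triangles, with the mean and SD of 3 arrays. Left of the dotted line are genes called higher in DIFF media and right of it genes called lower; for every gene shown the arrays of both media are apart.

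Of the called genes, 164 were well above background on all 3 growth arrays and on no DIFF array, and 10 on all 3 DIFF arrays and no growth array. Their changes are lower bounds, set against the lowest signal that counted as well above background on each array. AREG, an EGF receptor ligand, had 7.22, 7.91 and 7.47 in growth media and was at least 8.46-fold lower in DIFF media (adjusted p = 3.8e-11). IL1B, a proinflammatory cytokine, was at least 8.18-fold lower (adjusted p = 1.2e-08), and INHBB, a subunit of activin B and inhibin B, at least 6.49-fold lower (adjusted p = 1.7e-07). All 3 were apart between the media on every array. UGT2B15, which belongs to a family of near-identical genes, was at least 6.34-fold lower (adjusted p = 0.031), and the mitotic kinase gene PBK at least 5.25-fold lower (adjusted p = 3.0e-11). In the other direction LGI1, a secreted neuronal protein, had 6.39, 6.19 and 6.18 in DIFF media and was at least 5.37-fold higher (adjusted p = 0.013). MFSD6L was at least 7.11-fold higher (adjusted p = 0.028) and TMEM273 at least 5.32-fold higher (adjusted p = 0.0014). These bounds are less firm, since the DIFF signals were 4.84, 6.23 and 8.66 for MFSD6L and 4.29, 4.73 and 9.46 for TMEM273. DAPL1 was at least 3.28-fold higher (adjusted p = 4.1e-07) and ELOVL2-AS1 at least 3.16-fold higher (adjusted p = 0.0011).

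Myogenic transcription factors were already high in growth media and passed no call between the media. None of the 19 listed factors tested was called, and their median difference was 0.13. Without the fold limit 5 passed upward, against 12.7% of all genes, and 1 downward, TCF12 at −0.47 (limma, adjusted p = 0.0034). MYOD1, the determination factor, had 16.996, 17.01 and 16.992 in growth media and 17.08, 17.03 and 17.005 in DIFF media, a difference of 0.04 (adjusted p = 0.68). MYOG, the factor that drives the switch to differentiation, had 11.44, 11.07 and 11.45 against 11.30, 11.65 and 11.24, a difference of 0.07 (SE 0.31, adjusted p = 0.92). The arrays of both media overlapped for MYOG. MEF2C, a partner of the myogenic factors, differed by 0.02 (adjusted p = 0.97). MYF6, a factor of late differentiation, had 13.32, 13.17 and 13.31 against 14.02, 14.08 and 14.02. Its difference of 0.77 passed the adjusted p (8.7e-09) but not the 2-fold limit. MYF5 differed by −0.56 (adjusted p = 0.086), and PAX7, the factor of satellite cells, by 0.76 (adjusted p = 0.14).

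Few contractile genes were called between the media, and those called were higher. Of 23 thick filament and M-band genes 3 were higher and none lower (median 0.36), of 27 Z-disc, titin and assembly genes 3 were higher and none lower (median 0.53), and of 17 thin filament genes none was called (median 0.40), against 1.73% of all genes called higher. Without the fold limit 5, 10 and 2 members of these lists passed upward, and 1 thin filament gene, TPM3, passed downward. The groups did not overlap, with DIFF media higher, for 15, 21 and 14 members of these lists, against 20.8% of all genes. MYH8, the perinatal myosin heavy chain, had 15.71, 15.70 and 15.70 in growth media and 16.90, 16.81 and 16.90 in DIFF media, and it rose by 1.17 (SE 0.21, adjusted p = 2.7e-04). The M-band genes MYOM1 and MYOM2 rose by 1.16 (adjusted p = 0.0058) and 1.11 (adjusted p = 2.2e-08). SMYD1, a methyltransferase and chaperone partner needed for myosin assembly, rose by 1.23 (adjusted p = 1.9e-05), and MYOZ3, a Z-disc protein, by 1.20 (adjusted p = 1.8e-06). MYOT, the Z-disc protein myotilin, was called at 1.69 with an adjusted p of 0.047, and the call was lost whichever of the 6 arrays was left out. In a limma fit of these 6 arrays alone, without the spread of the other groups, MYOT had adjusted p = 6.5e-04. Other common markers of differentiation passed no call. CKM, muscle creatine kinase, had 17.34, 17.41 and 17.44 against 17.90, 17.93 and 17.90, a difference of 0.51 (SE 0.26, adjusted p = 0.18). The CKM arrays of both media were apart, and a fit of these 6 arrays alone gave adjusted p = 0.0067. MYH3, embryonic myosin heavy chain, differed by 0.13 (adjusted p = 0.83), ACTA1, skeletal actin, by 0.40 (adjusted p = 0.40), and DES, desmin, by −0.02 (adjusted p = 0.93). In the fit of the 6 arrays MYH3, ACTA1 and DES had adjusted p = 0.299, 0.0175 and 0.846.

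The called genes of calcium handling and of energy supply were all higher. Of 21 excitation-contraction genes tested 5 were higher and none lower (median 0.56), against 1.73% of all genes called higher, and 20 did not overlap with DIFF media higher, against 20.8% of all genes. The 5 calls fell to 3 without growth replicate 2 and to 3 without DIFF replicate 3. TRDN, triadin of the calcium release complex, had 10.89, 10.99 and 11.00 in growth media and 12.45, 12.51 and 12.40 in DIFF media, and it rose by 1.49 (adjusted p = 0.0045). PVALB, the calcium buffer parvalbumin, rose by 1.43 (adjusted p = 0.012), SCN4A, the muscle sodium channel, by 1.41 (adjusted p = 3.1e-06), CASQ1, calsequestrin, by 1.06 (adjusted p = 0.032), and SRL, sarcalumenin, by 1.02 (adjusted p = 0.0019). Of 21 energy supply genes 4 were higher and none lower (median 0.48). Without the fold limit 10 passed upward and 2 downward. The latter were LDHA at −0.91 (limma, adjusted p = 8.7e-11) and PPARGC1A at −0.72 (adjusted p = 5.0e-05). AMPD1, muscle AMP deaminase, had 10.87, 11.11 and 10.96 in growth media and 12.96, 12.89 and 12.88 in DIFF media, and it rose by 1.93 (adjusted p = 9.7e-08). SLC2A4, the insulin-responsive glucose transporter, had 6.26, 6.37 and 6.42 against 8.25, 8.04 and 7.94, and it rose by 1.73 (adjusted p = 5.7e-09). All DIFF arrays of both genes lay above all growth arrays. FBP2, muscle fructose-bisphosphatase, rose by 1.39 (adjusted p = 7.3e-07) and PHKG1, a catalytic subunit of phosphorylase kinase, by 1.00 (adjusted p = 9.6e-05). With the array that stood apart kept in the fit, the calls fell to 0 of the thick filament genes, 1 of the Z-disc genes and 2 of the excitation-contraction genes.

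Counts of calls in other muscle lists compare with 1.73% of all genes called higher and 5.05% called lower. COLQ, which anchors acetylcholinesterase at the neuromuscular junction, rose by 1.22 (adjusted p = 0.0072) as the sole called gene of 12, and NRARP, a Notch target, rose by 1.06 (adjusted p = 0.020) as the sole called gene of 13. The COLQ call was lost with normexp correction, with all 29 arrays and with replicate number as a block. The NRARP call was lost under each of these and with slide as a block, and also without growth replicate 1, growth replicate 3 or DIFF replicate 1. Of 20 fusion and cell contact genes ERBB3 rose by 1.02 (adjusted p = 0.0052), whereas VCAM1 fell by 1.39 (adjusted p = 4.2e-06) and STAB2 by 1.11 (adjusted p = 0.020). The STAB2 call was lost without growth replicate 1 or 3 and without DIFF replicate 2 or 3. Without the fold limit 4 of the 20 genes passed upward and 6 downward, against 12.7% and 20.1% of all genes. MYMK, the fusion protein myomaker, differed by 0.20 (adjusted p = 0.096). None of the 14 dystrophin complex genes, the 11 slow fibre genes or the 17 FOXO target genes was called. The ubiquitin ligase genes FBXO32 and TRIM63 differed by 0.97 (adjusted p = 2.6e-06) and 0.93 (adjusted p = 0.019), just under 2-fold. Of 10 smooth muscle genes 4 passed upward and 3 downward without the fold limit. Called higher were LMOD1, which rose by 1.26 (adjusted p = 2.4e-04), and MYH11. The summed log2 signal of the smooth muscle markers was 11.89 to 12.19 in growth media and 12.41 to 12.64 in DIFF media, and the part of such cells in these rises was not tested.

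Cell cycle genes called between the media were all lower in DIFF media, and the G2 and M phase genes were low in both. Of 45 G2 and M phase genes 28 fell and none rose, with a median of −1.42, against 5.05% of all genes called lower. The median signal of the list was 6.50 in growth media and 4.89 in DIFF media, and 22 of the 45 were well above background on all 6 arrays. BIRC5, survivin of the chromosomal passenger complex, had 9.81, 9.83 and 9.69 in growth media and 7.86, 7.61 and 7.85 in DIFF media, and it fell by 2.00 (SE 0.08, adjusted p = 9.2e-13). UBE2C, the ubiquitin-conjugating enzyme of the anaphase-promoting complex, had 8.12, 8.14 and 8.13 against 6.40, 6.79 and 6.46, and it fell by 1.58 (adjusted p = 1.1e-10). Neither gene overlapped between media. CCNB2, a mitotic cyclin, had 8.05, 8.33 and 8.10 against 6.80, 5.66 and 6.59, and it fell by 1.81 (adjusted p = 6.9e-07). TOP2A, topoisomerase II alpha, was not well above background on any DIFF array and was at least 3.05-fold lower there (adjusted p = 2.9e-07). MKI67, the proliferation marker Ki-67, fell by 1.03 (adjusted p = 3.1e-04), although 1 of its 3 probes was called. Of 43 S phase genes 9 fell and none rose (median −0.43). CDC45, a part of the replicative helicase, had 10.25, 10.36 and 10.26 against 7.503, 7.48 and 7.53, and it fell by 2.79 (adjusted p = 5.2e-16). CCND1, cyclin D1 of the G1 phase, had 10.71, 10.63 and 10.81 against 8.94, 8.79 and 8.88, and it fell by 1.85 (adjusted p = 4.0e-11). The CDK inhibitor gene CDKN1C differed by −0.39 (adjusted p = 0.091) and CDKN1A by 0.39 (adjusted p = 0.086). Many of these signals lay close to background. With normexp correction 7 G2 and M phase genes and 2 S phase genes were lower, and the cause of these smaller counts was not tested. Of 62 replication-dependent histone genes 4 were lower and none higher, against the same 5.05% of all genes, and the median of the list was −0.02. The probes may not separate the near-identical copies of these genes.

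Promoters of the G2 and M phase genes are shown because this class of genes is known to share 2 sequence elements, the CHR (TTTGAA) and the CCAAT box (CCAAT). Both were searched on both strands in the 250 bases before each RefSeq start (GRCh38.p14), and 38 of the 45 genes had a listed promoter. The CHR letters were in 52.6% of those 38 promoters and 13.6% of all 27305 promoters, and CCAAT was in 76.3% and 33.0%. Capitals mark the matches of either element on either strand in the promoters of CCNB2 (chr15:59105003-59105122, plus strand) and TOP2A (chr17:40417983-40418102, minus strand), both written 5′ to 3′ along the gene.
CCNB2: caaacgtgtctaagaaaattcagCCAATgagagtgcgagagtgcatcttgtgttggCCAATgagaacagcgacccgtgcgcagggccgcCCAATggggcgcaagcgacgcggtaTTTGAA
TOP2A: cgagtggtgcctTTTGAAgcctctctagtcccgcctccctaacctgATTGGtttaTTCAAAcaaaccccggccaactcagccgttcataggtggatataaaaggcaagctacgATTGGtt
Each of these windows held 4 matches. A match is a description of the letters, and binding was not measured.

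Many interferon-stimulated genes fell in DIFF media. Of 36 members tested 19 fell and none rose, with a median of −1.12, against 5.05% of all genes called lower. All 36 were lower on every DIFF array than on every growth array, against 28.2% of all genes. The median signal of the list was 12.38 in growth media and 11.50 in DIFF media with ZNF148 siRNA, and 9.30 and 9.58 with nontargeting siRNA. IFIT2, an RNA-binding antiviral effector, had 14.86, 14.75 and 14.54 in growth media and 13.54, 13.36 and 13.41 in DIFF media, and it fell by 1.28 (SE 0.08, adjusted p = 2.8e-10). Its signals with nontargeting siRNA were 9.84 and 9.64 in growth media and 10.36, 10.45 and 10.37 in DIFF media, all below those with ZNF148 siRNA. ISG20, an exonuclease against viral RNA, had 13.14, 13.03 and 12.83 against 11.41, 11.40 and 11.23, and it fell by 1.65 (adjusted p = 2.6e-10). IRF7, the transcription factor that amplifies the interferon response, fell by 1.19 (adjusted p = 9.2e-10), IFI44L by 1.44 (adjusted p = 1.1e-08) and MX1, an antiviral GTPase, by 1.27 (adjusted p = 0.0017).

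Some antigen presentation genes fell as well. Of 15 class I presentation genes 4 were lower and none higher (median −0.80), against 5.05% of all genes called lower, namely the peptide transporter genes TAP1 and TAP2 and the immunoproteasome genes PSMB8 and PSMB9. TAP1 had 15.07, 15.04 and 14.92 in growth media and 13.95, 13.90 and 13.92 in DIFF media, and it fell by 1.09 (adjusted p = 3.1e-09). TAP2 fell by 1.502 (adjusted p = 4.0e-06), PSMB8 by 1.20 (adjusted p = 3.4e-10) and PSMB9 by 1.42 (adjusted p = 9.7e-09). Of 12 class II pathway genes 9 were lower and none higher (median −1.51), although HLA-DMA passed the adjusted p upward (0.30, adjusted p = 0.013). Of those called, HLA-DRA had 6.75, 7.52 and 7.39 against 4.64, 4.17 and 4.63, and it fell by 2.74 (adjusted p = 1.4e-10). With normexp correction 3 class II genes were lower, and 5 of the 12 were well above background on all 6 arrays. The class II genes are polymorphic and alike, so a probe may not measure 1 gene alone. The leukocyte markers CD14 and CSF1R were lower too, with a summed signal of the leukocyte markers of 9.28 to 9.40 in growth media and 8.47 to 8.67 in DIFF media, and CLDN5, PECAM1 and TEK of the endothelial markers were lower, with summed signals of 9.72 to 9.82 and 8.01 to 8.32. The part of these genes in the result was not tested.

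The promoters of 3 of the genes above are shown because they hold the interferon-stimulated response element (ISRE), searched on both strands as GAAA and GAAA with any 2 bases between them. Of the 29 interferon-stimulated genes whose promoter was listed, 58.6% held it, as did 6 of the 12 class I presentation genes, against 3.07% of all promoters. Among the 15 members called lower that had a promoter it was in 9. Capitals mark the matches in IFIT3 (chr10:89327803-89327922, plus strand), which fell by 1.25 (adjusted p = 3.3e-07), in ISG20 (chr15:88638892-88639011, plus strand) and in TAP1 (chr6:32853771-32853890, minus strand).
IFIT3: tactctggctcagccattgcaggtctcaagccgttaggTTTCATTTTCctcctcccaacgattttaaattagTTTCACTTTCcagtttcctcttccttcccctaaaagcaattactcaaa
ISG20: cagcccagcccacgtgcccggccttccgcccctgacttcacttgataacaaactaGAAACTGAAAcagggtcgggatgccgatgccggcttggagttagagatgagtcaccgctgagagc
TAP1: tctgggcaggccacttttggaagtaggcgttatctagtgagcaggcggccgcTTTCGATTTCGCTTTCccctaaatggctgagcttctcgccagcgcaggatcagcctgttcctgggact
In TAP1 the capitals cover overlapping matches. IFIT3 was chosen for display from its promoter, after the values were seen.

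Many cytokine and chemokine genes fell in DIFF media. Of 24 tested genes that encode cytokines or are known targets of NF-kB, the transcription factor of inflammation, 13 fell and none rose (median −1.43). Over all genes tested, 5.05% were called lower. CXCL1, a neutrophil chemokine, had 10.62, 10.88 and 10.62 in growth media and 7.59, 7.12 and 7.07 in DIFF media, and it fell by 3.44 (SE 0.38, adjusted p = 8.6e-07) with both probes called. CXCL2 had 10.21, 10.35 and 10.22 against 8.46, 8.64 and 8.03, and it fell by 1.88 (adjusted p = 8.1e-06). CXCL3 had 6.70, 6.66 and 6.71 against 4.79, 3.92 and 4.63, and it fell by 2.24 (adjusted p = 1.6e-04). These 3 genes lie together on chromosome 4 and are alike in sequence, so their signals may not be independent. IL6, a cytokine that contracting muscle also secretes, had 8.80, 9.13 and 8.89 against 6.55, 6.27 and 6.96, and it fell by 2.34 (adjusted p = 3.2e-08), with 1 of its 2 probes called. LIF, a cytokine of the same family, fell by 1.97 (adjusted p = 1.1e-09), and CXCL6 was at least 4.55-fold lower (adjusted p = 1.3e-07).

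The NF-kB element, searched on both strands as GGGAA and TTCC with any 1 base between them, was in 31.6% of the 19 promoters of these genes and in 0.403% of all promoters. It was found in 4 of the 11 members called lower that had a promoter, CXCL1, CXCL2, CXCL3 and CXCL6. The first 3 are shown because the element stands in the same surroundings in each, with capitals for the match, for CXCL1 (chr4:73869260-73869379, plus strand), CXCL2 (chr4:74099208-74099327, minus strand) and CXCL3 (chr4:74038703-74038822, minus strand).
CXCL1: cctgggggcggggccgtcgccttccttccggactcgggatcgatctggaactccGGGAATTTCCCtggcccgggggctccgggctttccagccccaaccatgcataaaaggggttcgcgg
CXCL2: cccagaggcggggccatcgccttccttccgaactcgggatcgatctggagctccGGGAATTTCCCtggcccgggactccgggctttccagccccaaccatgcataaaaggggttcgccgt
CXCL3: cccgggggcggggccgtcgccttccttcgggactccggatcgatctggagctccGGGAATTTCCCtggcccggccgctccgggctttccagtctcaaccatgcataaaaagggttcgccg
The capitals run over overlapping matches of the 2 strands.

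Several targets of the glucocorticoid receptor fell in DIFF media. Of 21 tested genes that glucocorticoids are known to induce, 11 fell and none rose (median −1.16), against 5.05% of all genes called lower. FKBP5, a chaperone that restrains the receptor, had 9.11, 9.14 and 9.15 in growth media and 6.81, 6.45 and 6.97 in DIFF media, and it fell by 2.39 (SE 0.11, adjusted p = 3.6e-12). TSC22D3, the glucocorticoid-induced leucine zipper, had 14.61, 14.55 and 14.51 against 12.88, 12.91 and 12.89, and it fell by 1.67 (adjusted p = 1.4e-10). The arrays of each medium were close together for TSC22D3. DDIT4, an inhibitor of mTORC1, fell by 1.46 (adjusted p = 7.8e-14), ERRFI1, a feedback inhibitor of the EGF receptor, by 1.96 (adjusted p = 1.3e-12), and the clock gene PER1 fell by 1.48 (adjusted p = 5.9e-08). No promoter of the 19 listed genes with one held GNACA and TGTNC with any 3 bases between them, the palindrome of the receptor, which was in 0.33% of all promoters; the receptor also binds far from starts, and these letters alone were searched. Of 14 metallothionein and zinc genes 7 were called lower and none higher (median −1.06), against the same 5.05%. MT3 passed the adjusted p upward without passing 2-fold (0.77, limma, adjusted p = 1.1e-06). MT2A, a metal-binding protein that glucocorticoids and zinc both induce, had 17.54, 17.62 and 17.60 against 15.25, 15.04 and 15.16, and it fell by 2.44 (adjusted p = 6.9e-15). MT1A, MT1B and MT1L also fell, by 2.00 to 2.47, but the MT1 genes are near-identical and their probes may measure one another. The metal response element, searched on both strands as TGCNCNC, was in 5 of the 7 listed promoters of these genes and in 48.4% of all promoters.

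Some genes of TGF-beta and BMP signalling and of the matrix fell. Of 20 TGF-beta and BMP genes 8 were lower and none higher (median −0.89), against 5.05% of all genes called lower, while GDF11, TGFB2 and TGFB3 passed the adjusted p upward without passing 2-fold. ID2 fell by 2.72 (adjusted p = 1.4e-12) and ID3 by 2.34 (adjusted p = 8.3e-13), both BMP targets of the same family as ID1. The inhibitory SMAD genes SMAD6 and SMAD7 fell by 2.20 (adjusted p = 2.2e-10) and 1.64 (adjusted p = 3.3e-06). TGFBI, a matrix protein named for its induction by TGF-beta, fell by 1.64 (adjusted p = 7.0e-13). Of 31 collagen and matrix genes 10 were lower and none higher (median −0.87), against the same 5.05%, and 28 did not overlap with DIFF media lower, against 28.2% of all genes. ELN, elastin, had 8.48, 8.33 and 8.52 in growth media and 6.48, 5.02 and 6.34 in DIFF media, and it fell by 2.49 (adjusted p = 2.0e-06). LOX, which crosslinks collagen and elastin, had 10.07, 10.28 and 10.20 against 8.31, 8.01 and 8.39, and it fell by 1.95 (adjusted p = 7.0e-12). FN1, fibronectin, fell by 1.51 (adjusted p = 9.5e-09) and COL6A1 by 1.18 (adjusted p = 2.9e-09). COL1A1, the main fibrillar collagen chain, had 16.78, 16.82 and 16.82 against 15.88, 15.92 and 15.92, and its difference of −0.90 passed the adjusted p (2.8e-06) but not the 2-fold limit. Of 15 metalloproteinase genes and their inhibitors 5 were lower, with MMP2 at −1.39 (adjusted p = 1.3e-07) and TIMP1 at −1.36 (adjusted p = 3.7e-09). MMP15 passed the adjusted p upward without passing 2-fold (0.91, limma, adjusted p = 6.4e-07). The fibroblast markers had a summed signal of 14.41 to 14.65 in growth media and 14.10 to 14.23 in DIFF media, with PDPN lower. Their part in the matrix result was not tested.

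Growth factor, hypoxia and IGF genes held further falls. Each count of lower genes below compares with 5.05% of all genes called lower. Of 24 ERK pathway genes 7 were lower and none higher (median −0.62), among them EPHA2 at −1.94 (adjusted p = 5.0e-09), FOSL1 at −1.69 (adjusted p = 1.2e-07) and SPRY4, a feedback inhibitor, at −1.43 (adjusted p = 5.7e-06). With normexp correction 4 of them were lower. DUSP6, the phosphatase of ERK, differed by −0.74 (adjusted p = 0.058). Of 14 hypoxia genes 5 were lower (median −0.75), with NDRG1 at −2.38 (adjusted p = 2.6e-13) and VEGFA, the vascular growth factor, at −1.72 (adjusted p = 8.1e-10). Of 15 IGF pathway genes 4 were lower, and the IGF-binding proteins IGFBP1, IGFBP4 and IGFBP3 fell by 3.40, 1.81 and 1.46 (adjusted p from 3.5e-10 to 2.2e-12). IGF2 differed by −0.11 (adjusted p = 0.34) and IGF1 by 0.77 (adjusted p = 0.31). Of 14 YAP and TEAD target genes AXL, CCN1 and F3 fell, by 1.36, 1.17 and 1.82.

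Most sterol and respiratory genes passed the adjusted p upward. Of 25 cholesterol genes 2 were called higher, ACAT2 among them, and none lower, but 18 passed the adjusted p upward without the fold limit (median 0.44), against 12.7% of all genes. ACAT2, which makes acetoacetyl-CoA for the sterol pathway, had 10.78, 10.82 and 10.59 in growth media and 11.84, 11.93 and 11.84 in DIFF media, and it rose by 1.14 (adjusted p = 1.4e-08). HMGCS1, the next enzyme of the pathway, differed by 0.85 (adjusted p = 1.9e-07), which passed the adjusted p but not the fold limit. The sterol response element, searched on both strands as TCACNCCAC, was in 1 of the 18 listed promoters of the cholesterol genes and in 0.875% of all promoters. None of the 72 respiratory chain subunits passed 2-fold, yet 56 passed the adjusted p upward and none downward (median 0.26, range 0.02 to 0.50). Of 16 clock genes PER3 rose by 1.96 (adjusted p = 3.8e-04) and TEF by 1.28 (adjusted p = 3.4e-07), while PER1 fell. No member was called among 20 ATF4 and unfolded protein response genes, 14 p53 targets, 14 heat shock genes, 16 fatty acid genes and 9 sterol efflux genes. HMOX1, haem oxygenase, was lower at −1.04 (adjusted p = 9.7e-07) as the sole called gene of 16 iron and haem genes.

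**Figure D3:**
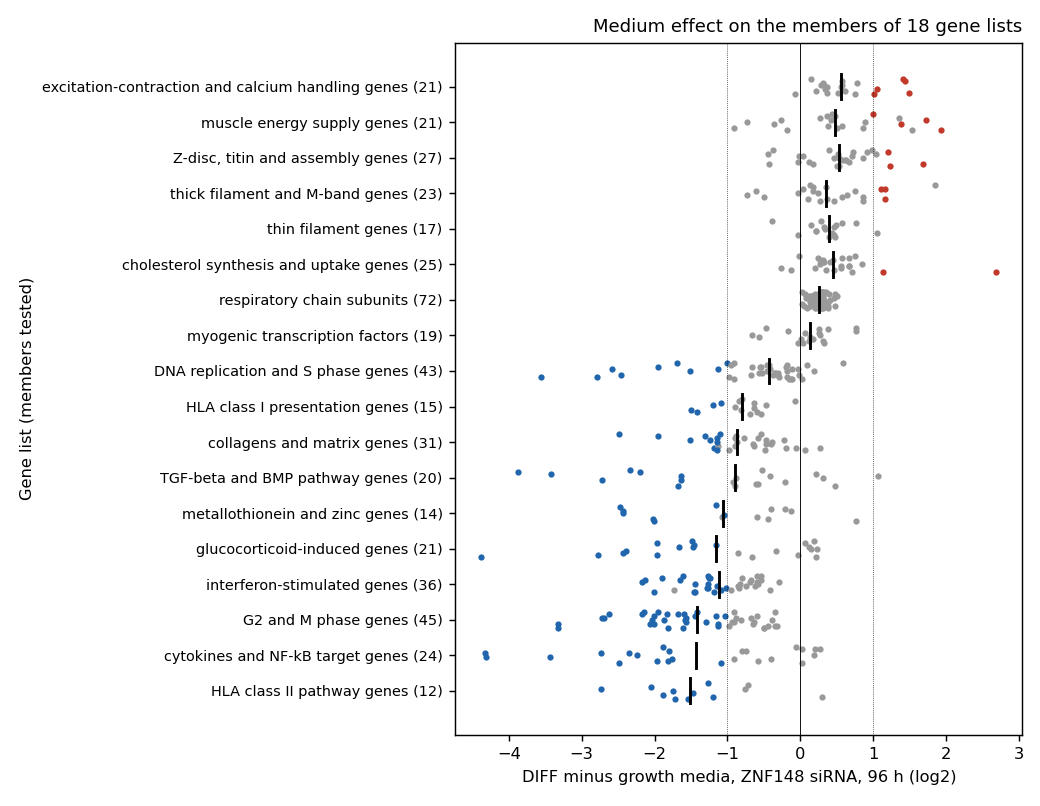
Difference between DIFF and growth media on the log2 scale (horizontal axis) for the tested members of 18 gene lists (vertical axis, with the number tested), ZNF148 siRNA at 96 h. Each point is a gene, red if called higher, blue if called lower and grey if not called, the black bar is the list's median, and dotted lines mark 2-fold; the medians run from 0.56 for excitation-contraction genes to −1.51 for HLA class II genes.

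The effect of the media was then compared with that in cells given nontargeting siRNA at 96 h. There, 1338 genes (7.27%) were higher and 1523 (8.28%) were lower in DIFF media. In the test of the difference between both effects, 1049 genes (5.70%) had a higher and 1485 (8.07%) a lower effect with ZNF148 siRNA (limma, adjusted p under 0.05 and over 2-fold). The nontargeting growth group had 2 arrays. Muscle lists held many genes whose effect was smaller with ZNF148 siRNA. For thin filament genes the median was 0.40 with ZNF148 siRNA and 3.72 with nontargeting siRNA, and 13 of the 17 had a lower effect. Excitation-contraction genes had medians of 0.56 and 2.64, with 15 of 21 lower. CKM had 9.79 and 9.75 in growth media and 14.09, 14.33 and 14.49 in DIFF media with nontargeting siRNA, all below every ZNF148 siRNA array. Its effect of 4.53 there exceeded that with ZNF148 siRNA by 4.03 (limma, adjusted p = 1.2e-07). MYOG had 6.81 and 7.07 against 10.38, 10.33 and 10.57 with nontargeting siRNA, and its effect was lower by 3.42 with ZNF148 siRNA (adjusted p = 9.4e-06). For CKM and MYOG the growth media arrays with ZNF148 siRNA lay above the DIFF media arrays with nontargeting siRNA.

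**Figure D4:**
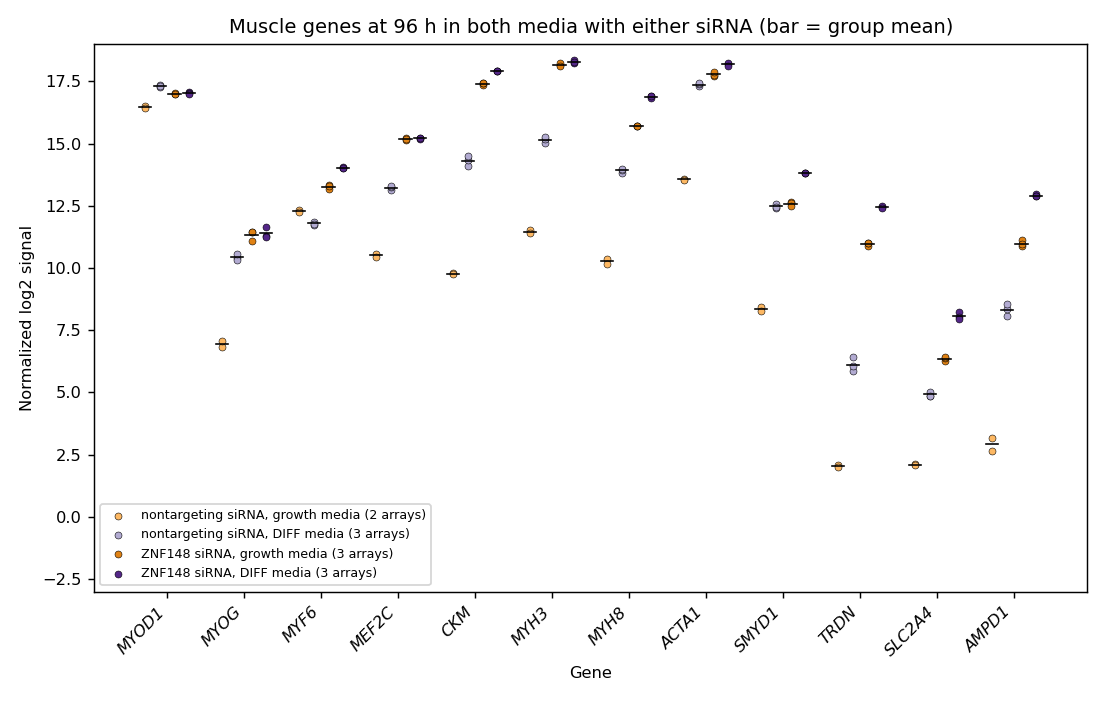
Normalized log2 signal (vertical axis) of 12 muscle genes at 96 h with nontargeting siRNA (2 arrays in growth media, 3 in DIFF media) and with ZNF148 siRNA (3 in each), every array as a point and the group mean as a bar. With nontargeting siRNA 11 of the 12 genes are higher in DIFF media and MYF6 is lower, while with ZNF148 siRNA both media are close for MYOD1, MYOG, MEF2C and MYH3 and apart for TRDN, SLC2A4 and AMPD1.

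Cell cycle genes also had smaller effects with ZNF148 siRNA. Of the 45 G2 and M phase genes 37 had a smaller fall with ZNF148 siRNA, with medians of −1.42 and −3.02. Over all genes, 5.7% had a higher effect with ZNF148 siRNA. The median signal of the list in growth and DIFF media was 11.28 and 8.13 with nontargeting siRNA and 6.50 and 4.89 with ZNF148 siRNA. With the latter 22 of the 45 were well above background on all 6 arrays, so the sizes of the other falls are not exact. UBE2C had 13.11 and 13.12 in growth media and 9.20, 9.13 and 9.19 in DIFF media with nontargeting siRNA, and the difference of −3.94 there was larger in size by 2.36 (adjusted p = 6.7e-11). Its growth media signals with ZNF148 siRNA, given above, were below all of these. For CCND1 the order was the other way, with a difference of −0.34 with nontargeting siRNA and −1.85 with ZNF148 siRNA, and the effects differed by −1.504 (adjusted p = 1.5e-07).

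Several falls were larger with ZNF148 siRNA. Of the 36 interferon-stimulated genes 20 had a lower effect with ZNF148 siRNA, against 8.07% of all genes. Their median with nontargeting siRNA was 0.03. IL21R had 7.24 and 7.57 in growth media and 7.64, 7.78 and 7.60 in DIFF media with nontargeting siRNA, an effect of 0.27 that differed from that with ZNF148 siRNA by −4.74 (adjusted p = 2.1e-11). CCDC3 had 6.197 and 6.51 against 6.85, 7.12 and 6.95, and the effects differed by −3.92 (adjusted p = 2.7e-12). Both genes stood above their nontargeting level in growth media with ZNF148 siRNA. For 31 matrix genes the medians were −0.87 with ZNF148 siRNA and −0.01 with nontargeting siRNA, and 12 had a lower and 2 a higher effect. COL1A1 had 14.19 and 14.18 against 15.75, 15.86 and 15.95 with nontargeting siRNA, a difference of 1.67 in the other direction than with ZNF148 siRNA. The effects differed by −2.57 (adjusted p = 3.0e-10). Glucocorticoid-induced genes had close medians with both siRNAs, −1.16 and −1.26, and FKBP5 differed by −2.39 and −2.72. The difference between those effects was 0.33 (limma, adjusted p = 0.16), which does not show that they were equal.

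With ZNF148 siRNA at 48 h, 263 genes (1.43%) were higher and 550 (2.99%) lower in DIFF media, together 4.42%. The effect at 96 h was higher than at 48 h for 111 genes (0.603%) and lower for 310 (1.68%), together 2.29%. Interferon-stimulated genes held 12 of the latter among 36, with medians of −1.12 at 96 h and −0.03 at 48 h. ISG20 had 9.78, 9.90 and 9.69 in growth media and 9.88, 9.92 and 9.59 in DIFF media at 48 h, where the media overlapped, and its effects differed by −1.66 (limma, adjusted p = 8.5e-07). Both 48 h groups lay below both 96 h groups for ISG20. Of the 45 G2 and M phase genes 2 had a higher and 3 a lower effect at 96 h, with medians of −1.42 and −1.39. For none of the 21 excitation-contraction genes did the effects at 96 and 48 h differ past the threshold. PGA3 had 6.27, 6.27 and 6.67 in growth media and 6.89, 7.39 and 6.76 in DIFF media at 48 h, and its effect was larger by 2.24 at 96 h (adjusted p = 3.7e-06). ANGPTL4 fell by 2.12 at 48 h, and its effect at 96 h was lower by a further 2.26.

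**Figure D5:**
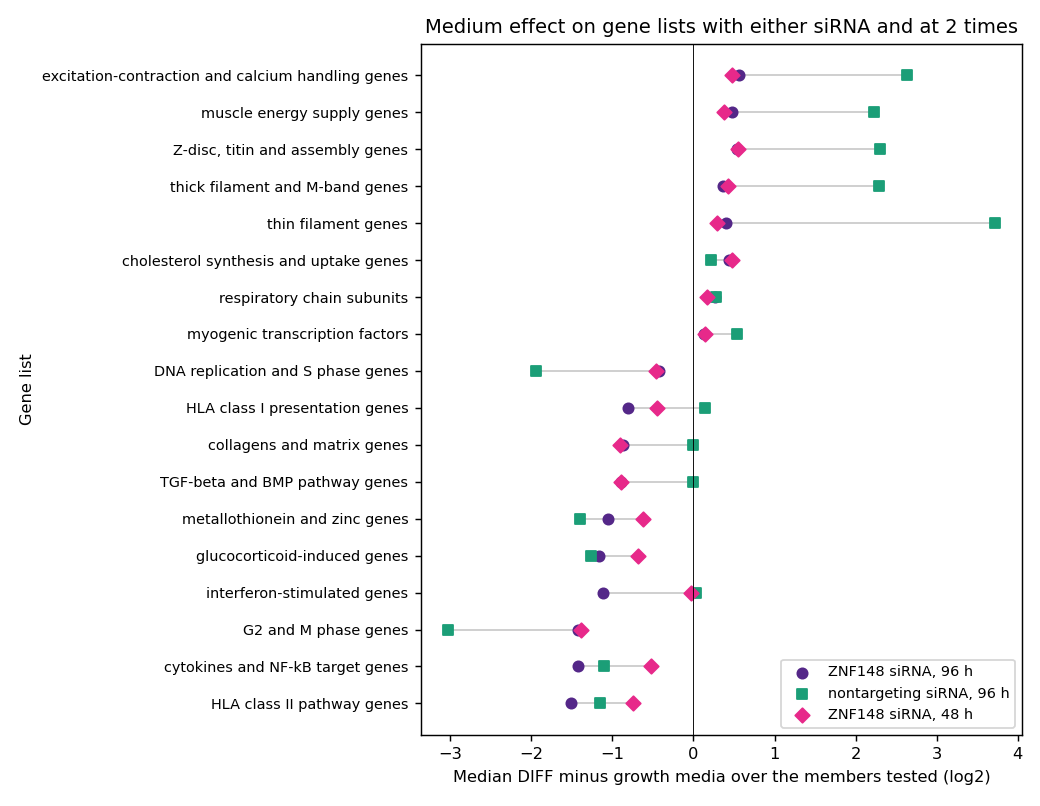
Median difference between DIFF and growth media on the log2 scale (horizontal axis) over the tested members of 18 gene lists (vertical axis), with ZNF148 siRNA at 96 h (circles), nontargeting siRNA at 96 h (squares) and ZNF148 siRNA at 48 h (diamonds). Squares lie farthest from 0 for contractile and cell cycle genes, and the circle stands alone at −1.12 for interferon-stimulated genes, where the other medians are 0.03 and −0.03.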

How the data were processed

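RNA of 29 cultures of LHCN-M2 cells was hybridized to 1-colour Agilent SurePrint G3 Human arrays. The authors scanned them and extracted the intensity of each spot with Agilent Feature Extraction (10.7.3.1 in the submitters' processing notes), background-subtracted on a linear scale and with a mark for spots well above background. They also deposited a matrix of quantile-normalized log2 values, which was used as an alternative. Control and outlier spots were left out, log2 signals were averaged over the spots of a probe (58201 probes), and all arrays were quantile-normalized as the methods describe, with limma 3.58.1 under R 4.3.3. Probes had to be well above background on 2 or more arrays, which 38714 were. They were fitted in limma with 1 mean per group over 28 arrays (residual degrees of freedom 18). The p-values were adjusted over all 38714 tested probes, and each of the 18398 tested genes kept the adjusted p-value of its brightest probe. No tested probe was saturated. RefSeq accessions named 31104 probes of 22439 genes. Gene names and promoters come from RefSeq tables of GRCh38.p14, whereas hg19 is named in 14 array headers and no build in the other 15, so coordinates are given for RefSeq promoters only.

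Genes were named by fixed rules: the 10 largest rises and falls without overlap and well above background on all 6 arrays, the 5 largest bounds each way, up to 4 called members of each list and direction with the smallest adjusted p, a set of muscle, cell cycle, sterol and hormone genes whatever their values, and the 5 largest differences each way between effects. Other list members named in the text, such as CCNB2, ELN, FN1, MX1, IFIT3, CXCL2, CXCL3, SMAD6, SMAD7 and CASQ1, were chosen after their values were seen. MRLN and MYMX had no named probe, and 4 genes that these rules name are not reported here. The comparison, gene lists and rules were chosen with earlier results of these data known. Replicate numbers did not pair the arrays. On simulated data with 38163 probes and the design of this comparison, 74 of 100 probes changed by 1.5 and 92 of 100 changed by 3 on the log2 scale were recovered, with 5 false calls. Alternatives covered scaling, background correction, the deposited matrix, filters, the arrays fitted, replicate or slide as a block, variance moderation, probe averaging, the methods' t-test and leaving out each array.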

Additional observations from a re-analysis of the deposited data

Results flagged for a closer look

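Genes and counts are given here because the effect of the media differed between groups in limma's test of the difference itself (adjusted p under 0.05 and over 2-fold). Values are differences between effects on the log2 scale, where an effect is DIFF minus growth media. Of the 18398 genes, 1049 had a higher and 1485 a lower effect with ZNF148 siRNA than with nontargeting siRNA at 96 h, and 111 had a higher and 310 a lower effect at 96 h than at 48 h with ZNF148 siRNA. No group of the comparison had 4 arrays, so single arrays far from their group were not screened for.

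Among genes well above background on every array of the 4 groups, the largest positive difference between the siRNAs was in ACTG2, enteric smooth muscle actin. Its log2 signal with nontargeting siRNA was 13.22 and 13.21 in growth media and 5.95, 6.74 and 6.44 in DIFF media, while with ZNF148 siRNA it was 11.73, 12.04 and 11.88 against 12.06, 11.92 and 12.17. The media were far apart with nontargeting siRNA and overlapped with ZNF148 siRNA, and the effects differed by 7.005. The next were ADIRF (4.53), PRR11 (4.26), TIMP3, an inhibitor of metalloproteinases (3.95), and the histone gene H2AC4 (3.91). PRR11 had DIFF signals of 6.88, 5.47 and 10.31 with ZNF148 siRNA, so 1 array was far above the other 2. C1QL4, a secreted C1q-like protein, had the largest negative difference (−6.76), with 6.16 and 6.18 against 10.97, 10.95 and 11.14 with nontargeting siRNA and 9.83, 9.78 and 9.85 against 7.97, 7.90 and 7.83 with ZNF148 siRNA. DIFF media were higher with the former and lower with the latter. CD24 turned in the same manner (−6.36), and PRRT4 (−6.31), ANKRD2, a muscle ankyrin repeat protein (−6.13), and CELA2B (−5.82) followed.

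Among the genes of large medium effect, the fitted differences of PI15 (4.798), CX3CR1 (2.85), ST3GAL3-AS1 (2.50) and MYH11 (1.74) are not measured sizes, because each was not well above background on any nontargeting array of at least 1 medium. PI15 read 6.35 and 2.31 on the nontargeting growth arrays and was well above background on 1 of them. The effect was lower with ZNF148 siRNA for IL21R (−4.74), CCDC3 (−3.92), CXCL12 (−2.16), ANGPTL4 (−1.43) and ID1 (−1.01), and less negative for KRTAP1-5 (1.80).

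Muscle genes with a lower effect with ZNF148 siRNA were CKM (−4.03), MYH3 (−3.56), MYOG (−3.42), ACTA1 (−3.41), SLN, sarcolipin (−3.11), TRIM63 (−2.98), MEF2C (−2.69), MYH2 (−2.61), MYH8 (−2.49), ENO3, muscle enolase (−2.23), and MEF2A (−1.83). MYF5 (1.93) and MYF6 (1.27) had a higher one. SLN, and IGF1 below, were not well above background on either nontargeting growth array, so their sizes are not exact. CDKN1C, which rose by 3.89 in DIFF media with nontargeting siRNA, differed by −4.28, and MKI67 by 2.23. Further differences were COL1A1 (−2.57), IGF1 (−2.53), CCND1 (−1.504), ID3 (−1.49), SPRY4 (−1.11) and DUSP6 (1.55), and DHRS3 (−3.61), RIMS3 (−3.29), CHST5 (−1.86), PLCB2 (2.33) and NMU (1.85).

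Between 96 h and 48 h with ZNF148 siRNA, the effect was higher at 96 h for PGA3 (2.24), RIMS3 (2.15), PLCL2 (1.99), the neuropeptide gene NMU (1.93), PLCB2 (1.87), CDKN1C (1.498), ACTG2 (1.42) and ADIRF (1.00). It was lower for NPTX1 (−2.92), DHRS3, a retinal reductase (−2.40), TGM2, transglutaminase 2 (−2.35), ANGPTL4 (−2.26), CHST5 (−2.17), BDKRB1 (−1.46), MYF5 (−1.42), ID1 (−1.41), KRTAP1-5 (−1.20), SPRY4 (−1.15) and IL21R (−1.03). KRTAP1-5 was not well above background on any DIFF array at 48 h, so its size is not exact. NPTX1 had 10.12, 10.39 and 9.87 in growth media and 10.50, 10.38 and 10.59 in DIFF media at 48 h, and 9.90, 10.25 and 9.89 against 7.51, 7.15 and 7.71 at 96 h. Its DIFF arrays at 96 h lay below the other 9.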

How the results depend on the processing

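The counts of genes between the media kept within 1.5 times of 319 higher and 930 lower under 75th percentile scaling (389 and 788, with 66.9% of calls lower against 74.5%), the deposited matrix, both filters, all 29 arrays, only the 6 arrays, slide as a block, other variance moderation, averaged probes and the methods' t-test (351 and 919 unadjusted, 281 and 749 after Benjamini-Hochberg). With normexp background correction they were 156 higher and 373 lower, the genes with a lower effect with ZNF148 than with nontargeting siRNA were 936, and those that differed between 96 and 48 h were 51 higher and 129 lower. Of the 1249 calls between the media, 496 were kept under normexp and none turned, while the estimate had the opposite sign for 4 with no filter and for 2 with averaged probes. The normexp run used an offset of 50. In it 5910 genes passed the adjusted p between the media without the fold limit, against 6039 in the main run. Without the fold limit the counts were 2337 and 3702 between the media, 2875 and 3655 between the siRNAs, and 761 and 1281 between the times. With replicate number as a block they were 168 and 418 between the media, but the numbers share no stated batch and did not pair the arrays. The correlations of deviations were −0.04, −0.06 and 0.00, and 0 of the 3 DIFF arrays correlated best with the growth array of its own number. The difference of ZNF148 between the media was 0.0783 with probes averaged by gene, where it passed no threshold (adjusted p = 0.59).

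Leaving out 1 array at a time gave 261 to 354 higher and 846 to 984 lower genes between the media, 979 to 1097 and 1349 to 1526 between the siRNAs, the lowest count of lower effects without nontargeting growth replicate 1, which left 1 array in that group, and 83 to 128 and 261 to 345 between the times. The ZNF148 reduction stayed between −2.40 and −2.21 in growth media and between −2.81 and −2.65 in DIFF media. For the 167 named genes with a test, no sign turned past the threshold in any alternative run, and calls were lost at least once for 56 genes, among them KLHL34, MYOT, MFSD6L, UGT2B15, CHST5, COLQ and NRARP. Muscle genes lost calls mainly with all 29 arrays. The cause of these changes was not tested. Signals near background limit the cell cycle, HLA class II and cytokine values, and 3 arrays per group limit the precision of all.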
